A study of Mus musculus with 9 samples.

Results

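The 38 Hox genes described here are the members of the Hoxa, Hoxb, Hoxc and Hoxd clusters that were listed by name, chosen as a gene family and not by their values in these samples. A probe was found for 37 of the 38 (Hoxc11 was not analysed here), and 30 passed the filter on dim probes and were tested among 22649 gene names. Total RNA of the esophagus of newborn mice (postnatal day 0, C57BL/6J background) was measured on Agilent arrays of 2 colours, each sample on an array of its own. The groups were p63 knockout mice with a Cdx2 transgene (genotype p63-/-;Cdx2, abbreviated p63KO_Cdx2, n = 2), p63 knockout mice (p63-/-, p63KO, n = 3) and wild type mice (WT, n = 4). The design text names the transgene Villin-Cdx2, after a promoter that is active in intestinal epithelium. Replicates of this genotype are numbered as if there were 3, and 2 were analysed here, and a source label of WT replicate 4 names p63-/- while its title, description and genotype name wild type.

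Hox genes encode homeodomain transcription factors that give cells along the head-to-tail axis their regional identity. Within a cluster, genes at the 3' end (low position numbers) are switched on earlier and further forward than genes at the 5' end (high numbers), and in the gut the layers around the epithelium also express them in ordered domains. The esophagus is an anterior part of the gut. The Cdx factors, which belong to the intestine and the tail end of the embryo, are known to bind and activate Hox genes, which is why a Cdx2 transgene in the esophagus raises the question of whether Hox expression moved with it.

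Every value below is a log2 ratio of the sample, labelled with Cy5, over a pool of RNA from 11 mouse cell lines (the reference RNA), which carried Cy3 on every array, unless the sample channel is named. The labels call the tissue epithelium, while the RNA came from whole esophageal tissue, and markers of other layers were bright. Of the listed markers, 10 of 10 fibroblast genes and 9 of 9 skeletal muscle genes were measured. The fibroblast markers' summed sample signal was 19.80 to 20.10 (log2) in p63KO_Cdx2, 20.15 to 20.35 in p63KO and 20.03 to 20.32 in WT. The 8 squamous epithelium markers summed to 15.30 to 15.46 in p63KO_Cdx2, 15.13 to 15.69 in p63KO and 17.91 to 18.27 in WT. In such bulk RNA, fewer cells of a type and less RNA per cell cannot be told apart. The brightest probe of Trp63, the gene of p63, had log2 ratios of 3.09 and 3.37 in p63KO_Cdx2, 2.73 to 2.74 in p63KO and 3.53 to 4.35 in WT. It fell by 1.21 (SE 0.18) in p63KO against WT (limma, adjusted p = 0.0219), while a second probe, well above background on all 9 arrays, went the other way, at 1.44 and 1.14 in p63KO_Cdx2, 0.72 to 0.83 in p63KO and 0.29 to 0.73 in WT. Which exons the knockout lacks is not stated in the labels, so these probes do not check the genotype. No array of the 9 had a Cdx1, Cdx2 or Cdx4 probe well above background. The Cdx2 probe had sample signals of 5.83 and 6.32 (log2) in p63KO_Cdx2, 5.92 to 6.02 in p63KO and 5.87 to 6.26 in WT. Transgene RNA was therefore not seen at this probe. Whether the transgene holds the probe's sequence is not known here, so its expression was neither shown nor excluded. Each genotype lay on its own slide and in its own scan, so a batch effect and a genotype effect cannot be told apart.

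Most Hox genes were detected in the newborn esophagus of all 3 genotypes. In the sample channel, 28 of the 37 members with a probe were well above background on both p63KO_Cdx2 arrays, 27 on all 3 p63KO arrays and 25 on all 4 WT arrays. Detection on every array is a stricter rule for more arrays, so these counts do not rank the genotypes. Members detected on no array of their group numbered 7, 6 and 7, in the same order. The filter on dim probes (at least 2 of 9 arrays) kept 22649 of 28105 gene names and 30 of the 37 Hox members. Passing this filter was thus about as common among all genes, and it does not set the Hox family apart. The 25 members of the WT count were detected on all 9 arrays. They were 9 of 10 Hoxa genes (Hoxa2, Hoxa3, Hoxa4, Hoxa5, Hoxa6, Hoxa7, Hoxa9, Hoxa10 and Hoxa11), 8 of 10 Hoxb genes (Hoxb2 to Hoxb7, Hoxb9 and Hoxb13), 5 of 8 Hoxc genes (Hoxc4, Hoxc5, Hoxc6, Hoxc9 and Hoxc10) and 3 of 9 Hoxd genes (Hoxd4, Hoxd8 and Hoxd9). Hoxb1, Hoxc12, Hoxd11 and Hoxd13 were not well above background on any array. Detection in the sample channel was therefore broad in the Hoxa and Hoxb clusters and patchy in Hoxd. The reference channel was often dim there too. It was well above background on 0 arrays for Hoxd1 and Hoxd13, 1 for Hoxd11, 6 for Hoxd3 and Hoxd12 and 8 for Hoxd10. Hoxb8, Hoxc12 and Hoxc13 reached 9. Where both channels were dim, a weak probe and a low level cannot be told apart.

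The other 8 members were detected on some arrays. Hoxd3 was detected on 2 of 2 p63KO_Cdx2, 3 of 3 p63KO and 3 of 4 WT arrays, and Hoxc8 on 1, 3 and 2 arrays of those groups. Hoxd12 was detected on 2 arrays of each genotype. Hoxd10 was detected on both p63KO_Cdx2 arrays, on 2 p63KO arrays and on no WT array, and Hoxd1 on no p63KO_Cdx2 array, 1 p63KO array and 2 WT arrays. Both sat at the edge of detection. The Hoxd10 sample signal averaged 6.50 (log2) in p63KO_Cdx2 and 6.28 in WT, which is 1.16-fold. The difference of its ratio did not pass (0.08 on the log2 scale, SE 0.12; limma, adjusted p = 0.727). The Hoxd1 sample signal averaged 5.99 in p63KO_Cdx2 and 6.35 in WT (limma, adjusted p of the ratio = 0.298). Raising the p63KO_Cdx2 arrays to at least the lowest signal of any probe well above background gave 6.10 for Hoxd1, 1.18-fold below WT. For Hoxd10 the same step left the WT mean at 6.28. The Hoxd1 mean of WT includes arrays on which it was not detected, so neither fold is a lower bound. Sample signals of different genotypes come from different slides. The reference channel, which holds the same RNA, differed by 0.14 for Hoxd10 and -0.15 for Hoxd1 in p63KO_Cdx2 against WT. Hoxa13, Hoxb8 and Hoxc13 were each detected on 1 array only, in WT, p63KO_Cdx2 and p63KO, in that order.

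**Figure D1:**
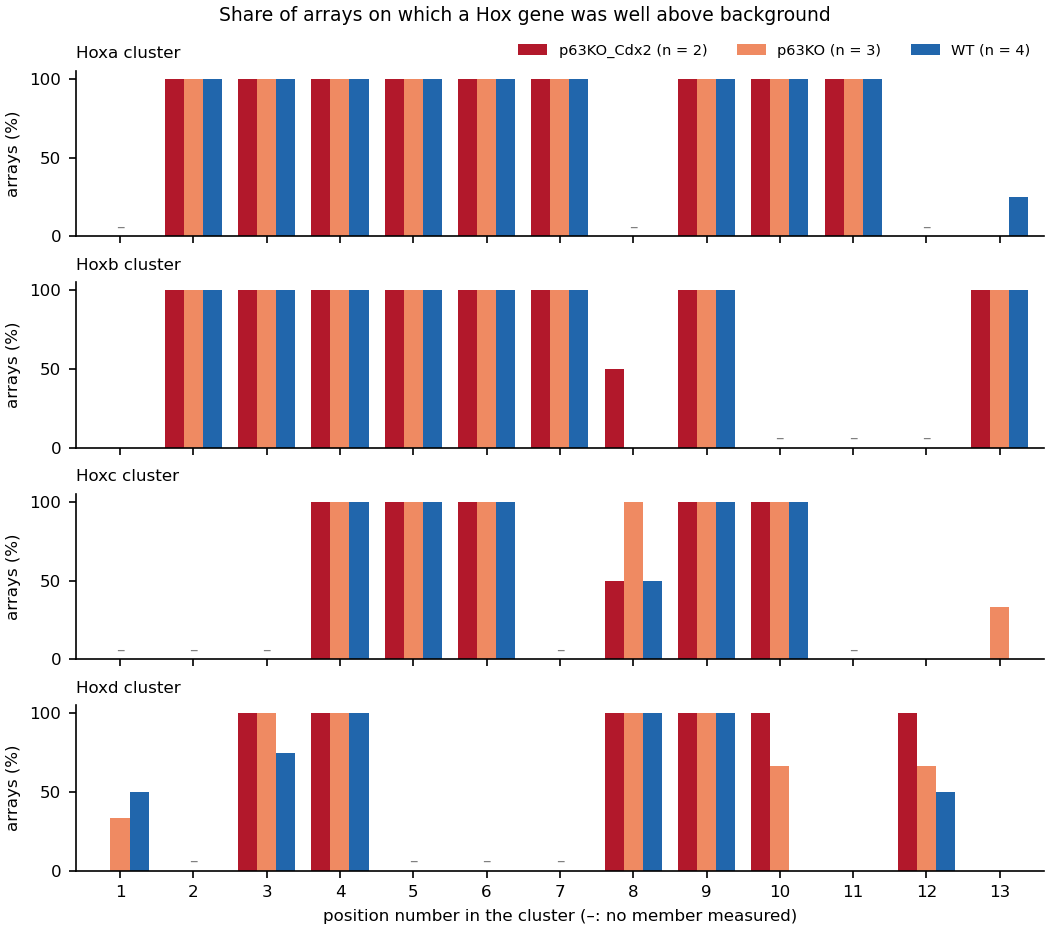
Share of the arrays of each genotype (percent, n = 2, 3 and 4) on which a Hox gene was well above background in the sample channel, by cluster and position number. Bars at 100 fill most positions of Hoxa and Hoxb, and the Hoxd cluster holds 4 of the 8 genes detected on some arrays.

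Set against the reference RNA, low position numbers stood high and high numbers stood low. Of the 13 tested genes at positions 1 to 5, 12 had a mean ratio above 0 over the 9 arrays, with a median of 0.64 and a range from -0.07 (Hoxd4) to 2.38 (Hoxb3). All 7 tested genes at positions 6 to 8 were below 0 (median -1.09, from -2.56 for Hoxc6 to -0.41 for Hoxa6), and so were all 10 at positions 9 to 13 (median -1.79, from -4.09 for Hoxc9 to -0.04 for Hoxd12). The order by position was alike in each genotype. Over the 30 genes, which are not independent and share arrays and reference, Spearman's rho of position and mean ratio was -0.730 in p63KO_Cdx2, -0.749 in p63KO and -0.740 in WT, given as a description. Each ratio depends on the probe used, here the brightest of a gene, and on how much of that transcript the reference cell lines hold. It therefore places a gene against that RNA and does not rank Hox transcripts by abundance.

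At the brightest probes, the highest ratios belonged to the anterior genes of the Hoxa and Hoxb clusters. Hoxb3 averaged 2.46 ± 0.28 in p63KO_Cdx2, 2.32 ± 0.15 in p63KO and 2.39 ± 0.14 in WT (SD, n = 2, 3 and 4). Hoxa4 averaged 2.05 ± 0.32 in p63KO_Cdx2, 2.05 ± 0.25 in p63KO and 2.17 ± 0.14 in WT. Hoxa5, which is required in mice for the development of the lung and airway mesenchyme, averaged 2.06 ± 0.48, 2.11 ± 0.14 and 1.75 ± 0.35 in those groups. None of these 3 genes passed in any comparison. Their levels depended on the probe where a second one was kept. Second probes, also well above background on all 9 arrays, read -0.94 to -0.55 for Hoxb3 and 0.00 to 0.46 for Hoxa4. Hoxa3, a gene of pharyngeal organ formation, averaged 0.76 ± 0.08 in p63KO_Cdx2, 0.70 ± 0.04 in p63KO and 0.53 ± 0.29 in WT. On WT replicates 3 and 4 its probe was low in both channels, with reference signals of 6.48 and 6.64, against 7.21 and 7.15 on replicates 1 and 2. The reference signals of a second Hoxa3 probe were 7.15 and 7.12 on WT replicates 3 and 4, and its ratios there were 0.10 and 0.16. Hoxb4 averaged 0.52 ± 0.39, 0.48 ± 0.16 and 0.54 ± 0.07, and Hoxc4 0.09 ± 0.10, 0.15 ± 0.06 and 0.13 ± 0.08, in the same order of groups. These 3 genes did not pass in any comparison either.

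The posterior genes stood far below the reference in every genotype. Hoxc9 ranged from -4.21 to -3.83 over the 9 arrays, Hoxa11, a gene of limb and reproductive tract patterning, from -3.99 to -3.68, and Hoxa10 from -3.12 to -2.89. Hoxb9 ranged from -2.24 to -1.72, Hoxc10 from -2.38 to -2.01 and Hoxb13, a gene of the tail end and prostate, from -1.35 to -1.23. Hoxc8 ranged from -1.52 to -1.29. None of these 7 genes passed in any comparison. Several were dim in the sample channel. Signals averaged 6.42, 6.42 and 6.43 (log2) for Hoxa10 and 6.28, 6.51 and 6.44 for Hoxc8 in p63KO_Cdx2, p63KO and WT. Those of Hoxb13 (6.62, 6.51 and 6.66) and Hoxc10 (6.61, 6.70 and 6.65) were little brighter. Small differences of these dim genes are uncertain. Hoxd10 (-0.32 to 0.11), Hoxd12 (-0.16 to 0.04), Hoxd3 (-0.07 to 0.41) and Hoxd1 (0.03 to 0.49) lay near 0, with both channels dim: the reference channel of Hoxd1 was at background level on all 9. A ratio near 0 between dim channels says little about level.

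**Figure D2:**
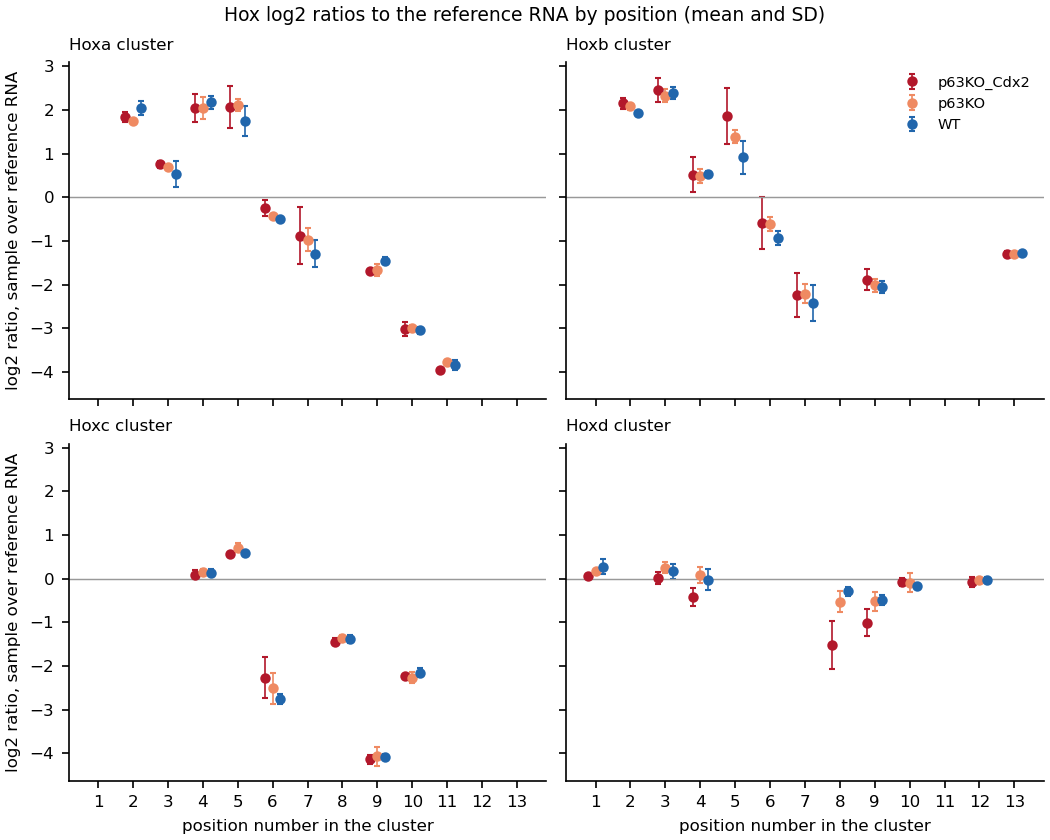
Mean log2 ratio of sample over reference RNA (points; bars are the SD over n = 2, 3 and 4 arrays, 3 WT arrays for Hoxc5) for each tested Hox gene, by cluster and position number, in p63KO_Cdx2, p63KO and WT. Positions 1 to 5 lie mostly above 0, Hoxd4 in p63KO_Cdx2 (-0.42) being the lowest of them, positions 6 and up lie below or near it, and Hoxd8 in p63KO_Cdx2 (-1.52) stands apart from p63KO (-0.53) and WT (-0.29).

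The comparison of p63KO_Cdx2 with WT joins loss of p63 and gain of the transgene, and 1 Hox gene passed in it. Hoxd8, a homeodomain factor of the middle of the Hoxd cluster, had log2 ratios of -1.92 and -1.12 in p63KO_Cdx2, against -0.44, -0.25, -0.28 and -0.20 in WT. Both p63KO_Cdx2 arrays lay below all WT arrays and below all p63KO arrays (-0.29, -0.77 and -0.54). Hoxd8 fell by 1.23 on the log2 scale in p63KO_Cdx2 against WT, a fold of 2.35 (SE 0.21, 95% interval -1.71 to -0.74; limma, adjusted p = 0.0234). Of the 22648 genes tested, 3.56% passed in either direction in this comparison and 21.5% had an unadjusted p under 0.05, against 1 and 7 of the 30 Hox genes. The Hox share was thus close to that of all genes.

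The Hoxd8 call rested on several single arrays. It was lost without p63KO_Cdx2 replicate 1, where the difference was -0.83 (adjusted p = 0.0645), and without WT replicate 2, 3 or 4 (-1.21, -1.22 and -1.20; adjusted p = 0.0676, 0.0561 and 0.0716). In the sample channel alone the difference was -0.61 (SE 0.40; limma, adjusted p = 0.415). There the signals were 7.87 and 8.27 (log2) in p63KO_Cdx2, against 9.13, 9.40, 7.89 and 8.30 in WT, so the groups overlapped. WT replicates 3 and 4 were low in both channels, with reference signals of 8.17 and 8.50 against 9.58 and 9.65 on WT replicates 1 and 2. p63KO_Cdx2 replicate 1, the lowest for Hoxd8, also had the lowest summed marker signals of all 9 arrays for fibroblasts (19.80), respiratory epithelium (19.02), adipocytes (15.09), enteric neurons and glia (14.54), smooth muscle (17.78) and blood and immune cells (18.33), while its 9 skeletal muscle markers summed to 20.31, against 18.82 on replicate 2. The part of these marker levels in the Hoxd8 difference was not tested.

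The genes next to Hoxd8 on chromosome 2 leaned the same way without passing. Hoxd9 had log2 ratios of -1.22 and -0.79 in p63KO_Cdx2, against -0.63, -0.49, -0.33 and -0.51 in WT. The groups did not overlap, and the difference was -0.52 (SE 0.16; limma, adjusted p = 0.109). A second Hoxd9 probe differed by -0.41 (SE 0.13). Hoxd4, the neighbour on the 3' side, had log2 ratios of -0.57 and -0.27 in p63KO_Cdx2, against -0.27, -0.17, 0.24 and 0.10 in WT, and differed by -0.39 (SE 0.17; limma, adjusted p = 0.222). Along the cluster from Hoxd12 to Hoxd1 the differences were -0.05 for Hoxd12, 0.08 for Hoxd10, -0.52 for Hoxd9, -1.23 for Hoxd8, -0.39 for Hoxd4, -0.15 for Hoxd3 and -0.21 for Hoxd1. Of these 7 genes, Hoxd4, Hoxd8 and Hoxd9 were detected on all 9 arrays, and the other 4 were dim on some, so their differences are uncertain. The median over the 7 was -0.21, the value of the dim Hoxd1, against -0.0207 over all genes, and is a description only. The 8 Hoxb genes had a median of 0.172, the 9 Hoxa genes 0.0398 and the 6 Hoxc genes -0.049. Without p63KO_Cdx2 replicate 1 the Hoxb median was -0.0233, with 4 of 8 genes above 0, and the Hoxd median was -0.176. Without replicate 2 they were 0.294 and -0.245.

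The probes of these 3 genes lie on chromosome 2 of mouse build mm9, on the plus strand, at 74537676 to 74537735 for Hoxd9, 74545021 to 74545080 for Hoxd8 and 74566866 to 74566925 for Hoxd4. Their upstream sequences are printed because these 3 neighbours had the lowest differences in both comparisons of p63KO_Cdx2. A further reason is that Cdx2, the factor of the transgene, binds a known short motif. The RefSeq promoter table held 22 of the 38 members. Each line gives the 250 bases before the RefSeq start on GRCm38.p6, plus strand, in lower case, with matches to the Cdx-type motif CATAAA (either strand, hence also TTTATG) in capitals.
Hoxd9, chr2:74697513-74697762: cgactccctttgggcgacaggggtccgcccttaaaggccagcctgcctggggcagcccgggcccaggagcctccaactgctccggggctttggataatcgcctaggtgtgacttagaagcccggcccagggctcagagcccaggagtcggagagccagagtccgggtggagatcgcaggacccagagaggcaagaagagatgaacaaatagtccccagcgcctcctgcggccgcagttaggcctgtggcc
Hoxd8, chr2:74704365-74704614: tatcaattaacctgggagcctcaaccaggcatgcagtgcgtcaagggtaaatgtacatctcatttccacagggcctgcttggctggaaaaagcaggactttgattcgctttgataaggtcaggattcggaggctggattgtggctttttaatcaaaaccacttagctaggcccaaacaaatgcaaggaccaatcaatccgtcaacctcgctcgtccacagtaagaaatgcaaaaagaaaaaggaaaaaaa
Hoxd4, chr2:74721728-74721977: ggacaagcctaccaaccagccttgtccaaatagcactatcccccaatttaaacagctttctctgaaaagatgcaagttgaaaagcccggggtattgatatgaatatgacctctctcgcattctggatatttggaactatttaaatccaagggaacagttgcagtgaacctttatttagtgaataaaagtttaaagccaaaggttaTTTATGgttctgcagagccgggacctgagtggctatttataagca
The Hoxd4 sequence held 1 match, 45 bases before the start, and the Hoxd9 and Hoxd8 sequences held none in this window. Matches stood in 5 of the 22 Hox genes found (Hoxa7, Hoxb8, Hoxd3, Hoxd4 and Hoxd11), through 5 of their 24 windows (20.8%), and in 10.8% of all 32851 promoter windows of that length. A shared Pbx and Hox type motif, TGATNNAT on either strand, stood in 4 of the 24 windows (16.7%) and in 7.68% of all windows. These matches are letters in a window and not shown to be bound sites.

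Several Hoxb and mid-cluster genes were higher in p63KO_Cdx2 without passing. Hoxb5, a gene of enteric nerve and lung development in mice, had log2 ratios of 2.31 and 1.40 in p63KO_Cdx2, against 1.29, 1.02, 0.42 and 0.91 in WT. The groups did not overlap, and the difference was 0.95 (SE 0.28, 95% interval 0.31 to 1.60; limma, adjusted p = 0.104). The size depended on the p63KO_Cdx2 replicate: the difference was 0.50 (adjusted p = 0.452) without replicate 1 and 1.41 (adjusted p = 0.0487) without replicate 2. Hoxb2, a gene of the hindbrain and pharyngeal arches, had 2.24 and 2.06 in p63KO_Cdx2, against 1.86, 1.90, 1.96 and 1.97 in WT, a difference of 0.23 (SE 0.08; adjusted p = 0.166). A probe on the strand opposite to Hoxb2 differed by 0.37 (SE 0.16; adjusted p = 0.236) and is not counted among the members. Hoxc6 (0.48, SE 0.22) and Hoxa6 (0.25, SE 0.09) were also above all WT arrays, with adjusted p = 0.255 and 0.150. Hoxa9, a 5' gene, lay below all WT arrays at -1.69 and -1.67, against -1.49, -1.37, -1.39 and -1.56, a difference of -0.23 (SE 0.10; adjusted p = 0.215). In all, 4 Hox genes lay above and 3 below all WT arrays, 7 of 30, where 31% of all genes did not overlap in either direction. For 27 of the 30 the 95% interval lay within 1 log2 unit either way, all but Hoxa7, Hoxb5 and Hoxd8.

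**Figure D3:**
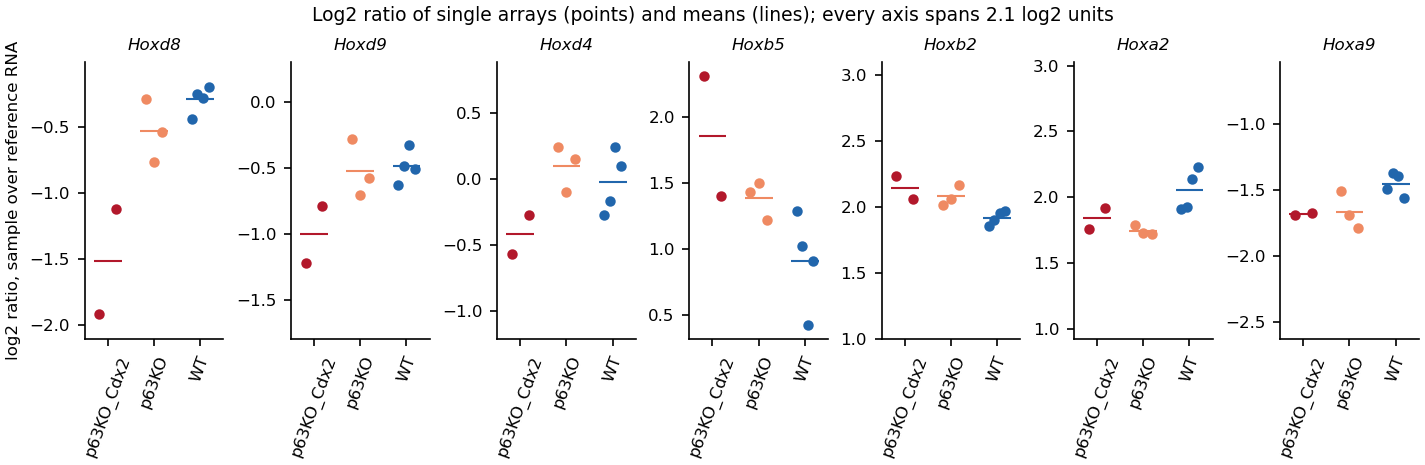
Log2 ratio of sample over reference RNA on each array (points) and group mean (lines) for 7 Hox genes in p63KO_Cdx2 (n = 2), p63KO (n = 3) and WT (n = 4). The p63KO_Cdx2 arrays lie below every other array for Hoxd8 (-1.92 and -1.12) and differ from each other by 0.79 there and by 0.91 for Hoxb5.

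The comparison of p63KO_Cdx2 with p63KO asks what the transgene added in mice that lack p63. Transgene RNA was not seen at the Cdx2 probe, and no Hox gene passed in this comparison. The lowest p belonged to 3 Hoxd genes. Hoxd8 had log2 ratios of -1.92 and -1.12 in p63KO_Cdx2, against -0.29, -0.77 and -0.54 in p63KO, a difference of -0.98 (SE 0.22, 95% interval -1.49 to -0.47; limma, adjusted p = 0.247). Hoxd9 had -1.22 and -0.79 in p63KO_Cdx2, against -0.28, -0.71 and -0.58 in p63KO, a difference of -0.48 (SE 0.17; adjusted p = 0.293). Hoxd4 had -0.57 and -0.27 in p63KO_Cdx2, against 0.24, -0.10 and 0.15 in p63KO, a difference of -0.51 (SE 0.18; adjusted p = 0.294). In each of the 3 genes both p63KO_Cdx2 arrays were below all p63KO arrays. Without p63KO_Cdx2 replicate 1 the differences were -0.59 for Hoxd8, -0.27 for Hoxd9 and -0.36 for Hoxd4. These values share the p63KO_Cdx2 arrays with the comparison against WT and add no second measurement of that group.

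No gene of the 22645 tested passed in this comparison (limma, 0% called), 14% had an unadjusted p under 0.05 and 32.1% did not overlap, against 0, 3 and 8 of the 30 Hox genes. Besides Hoxd8, Hoxd9 and Hoxd4, the members that did not overlap were Hoxd3 (-0.23, SE 0.13), Hoxd1 (-0.12, SE 0.11), Hoxc5 (-0.14, SE 0.09) and Hoxa11 (-0.17, SE 0.10), all lower in p63KO_Cdx2, and Hoxa6 (0.19, SE 0.09), higher there. The Hoxd median was -0.228, with 6 of 7 genes below 0, and 4 of the 7 were dim on some arrays. The Hoxb median was 0.0547, with 7 of 8 genes above 0, and the medians of Hoxa and Hoxc were 0.00209 and -0.0677, against -0.0305 over all genes. Without p63KO_Cdx2 replicate 1 the Hoxb median was -0.0419, with 3 of 8 genes above 0, and the Hoxd median was -0.132. Without replicate 2 they were 0.321 and -0.325. Over all 30 members 15 differences were positive and 15 negative, with a median of -0.00243. For 28 of the 30 the 95% interval lay within 1 log2 unit, a 2-fold change, either way, and Hoxb5 and Hoxd8 were the exceptions.

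The p63KO_Cdx2 arrays differed from each other in several Hox genes. Of the 30 members, 8 differed by over 0.5 between these arrays (26.7%), against 14% of all genes. On replicate 1, 7 of them were higher: Hoxa7 by 0.92, Hoxb5 by 0.91, Hoxb6 by 0.84, Hoxb7 by 0.70, Hoxa5 by 0.67, Hoxc6 by 0.66 and Hoxb4 by 0.55. Hoxd8 was lower on replicate 1 by 0.79. In p63KO, 1 of 30 members spanned over 0.5 among 3 arrays (Hoxc6, 0.70), against 14.1% of all genes. In WT, 6 members did among 4 arrays, Hoxb7 (0.91), Hoxb5 (0.88), Hoxa5 (0.82), Hoxa7 (0.74), Hoxa3 (0.62) and Hoxd4 (0.51), or 20.7% of the 29 members measured on all 4, against 20.2% of all genes. The Hoxa3 probe was low in both channels on WT replicates 3 and 4, as given above, so its span may not be one among mice. Hoxa5, Hoxa7, Hoxb5 and Hoxb7 spanned over 0.5 among mice in both p63KO_Cdx2 and WT. WT replicate 3 was the lowest WT array for each of these 4, at 1.24 for Hoxa5, -1.74 for Hoxa7, 0.42 for Hoxb5 and -2.73 for Hoxb7. Cartilage markers summed to 17.27 on that array, against 14.18 to 16.15 on the other WT arrays, and their part in these values was not tested.

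The comparison of p63KO with WT asks what loss of p63 changed, and no Hox gene passed in it. Hoxa2, which patterns the second pharyngeal arch, had log2 ratios of 1.79, 1.73 and 1.72 in p63KO, against 1.91, 1.93, 2.14 and 2.23 in WT. The p63KO arrays lay below all WT arrays, with a difference of -0.31 (SE 0.10, 95% interval -0.53 to -0.09; limma, adjusted p = 0.325). Hoxa9 had -1.51, -1.69 and -1.79 in p63KO, against -1.49, -1.37, -1.39 and -1.56 in WT, a difference of -0.21 (SE 0.08; adjusted p = 0.495). The groups overlapped on 1 array of each. Hoxb2 had 2.02, 2.06 and 2.17 in p63KO, above all WT arrays at 1.86, 1.90, 1.96 and 1.97, with a difference of 0.16 (SE 0.07; adjusted p = 0.565). Hoxb6 (0.32, SE 0.19) was the other gene whose p63KO arrays lay above all WT arrays, and its second probe differed by 0.07 (SE 0.08). Hoxd8 differed by -0.24 (SE 0.19), Hoxd9 by -0.04 (SE 0.14) and Hoxd4 by 0.12 (SE 0.15).

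In p63KO against WT, 0.808% of 22646 genes passed, 9.17% had an unadjusted p under 0.05 and 11.9% did not overlap, against 0, 2 and 3 of the 30 Hox genes. Of the members, 19 differences were positive and 11 negative, with a median of 0.039 against 0.0083 over all genes. The 30 differences ran from -0.31 (Hoxa2) to 0.48 (Hoxb5, SE 0.25), and for 29 of them, all but Hoxb5, the 95% interval lay within 1 log2 unit either way. For 21 it lay within 0.5. Squamous markers, by contrast, summed to 15.13 to 15.69 in p63KO and 17.91 to 18.27 in WT. The plot of differences shows the intervals of all members side by side.

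**Figure D4:**
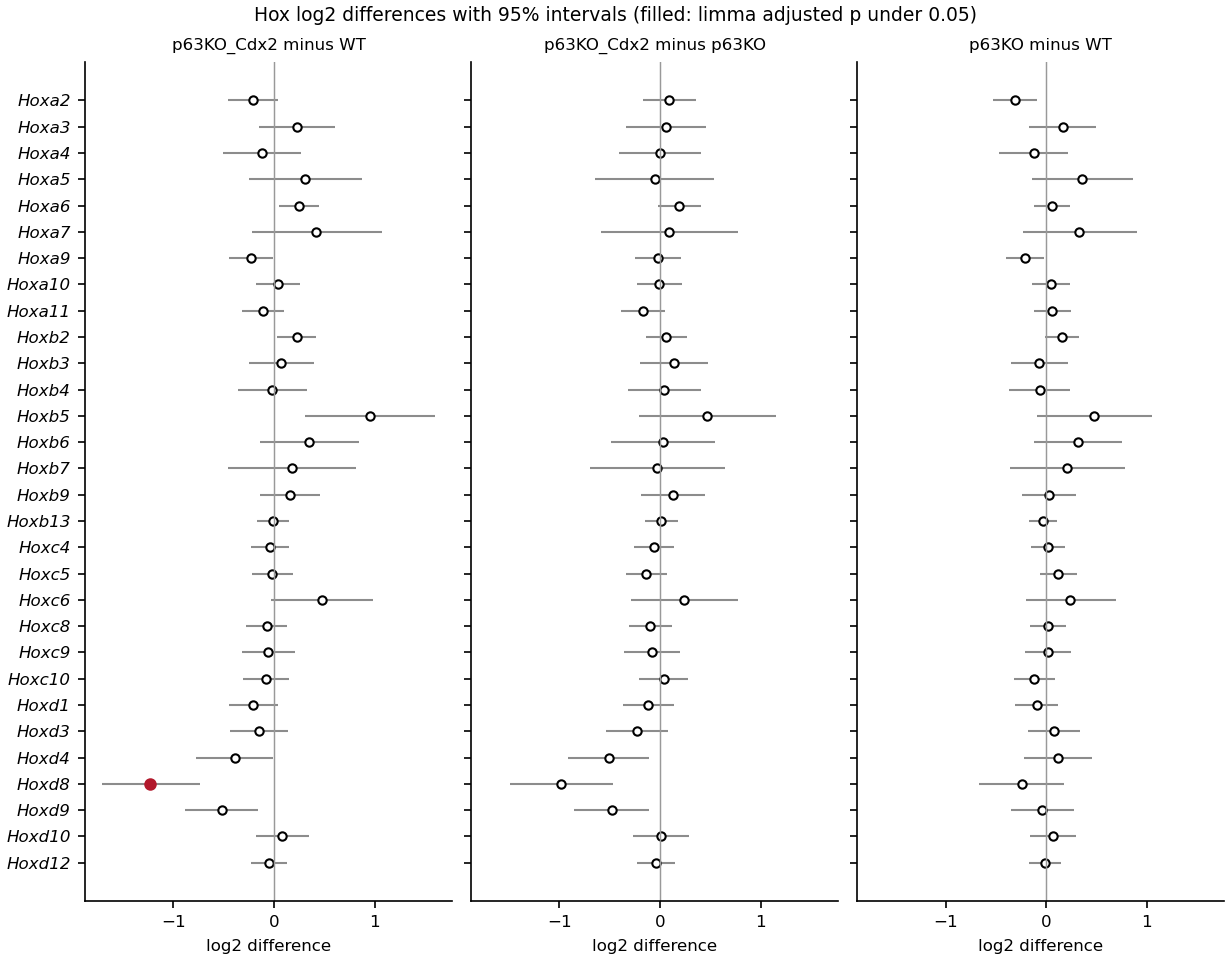
Log2 differences of the 30 tested Hox genes (points) with 95% intervals (lines) in the 3 comparisons, p63KO_Cdx2 minus WT, p63KO_Cdx2 minus p63KO and p63KO minus WT. Filled points passed limma at an adjusted p under 0.05, which is Hoxd8 in p63KO_Cdx2 against WT (-1.23), and most intervals cross 0.

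In the sample channel alone the Hoxd8 call was lost and Hoxc5 was called. In p63KO against WT 1 Hox gene passed there, where 1.97% of all genes did, and 0 passed in p63KO_Cdx2 against p63KO (0.296% of all genes) and in p63KO_Cdx2 against WT (2.9%). Hoxc5 had sample signals of 10.35, 10.31 and 9.98 (log2) in p63KO, against 9.08, 8.64 and 8.87 in WT replicates 2 to 4, since its single spot on WT replicate 1 was marked as an outlier and left out. The groups did not overlap and the sample difference was 1.35 (SE 0.23; limma, adjusted p = 0.0334). The reference channel of the same probe, which holds the same RNA on every array, differed by 1.23 (SE 0.20; adjusted p = 0.00857). The Hoxc5 ratio differed by 0.12 (SE 0.08; adjusted p = 0.729). In p63KO_Cdx2 the Hoxc5 sample signals were 8.84 and 9.63. Because slide and genotype cannot be told apart, the ratio is the measure used for every other gene. At an unadjusted p under 0.05, the sample channel held 3 Hox genes in p63KO_Cdx2 against WT, 3 in p63KO_Cdx2 against p63KO and 4 in p63KO against WT.

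**Figure D5:**
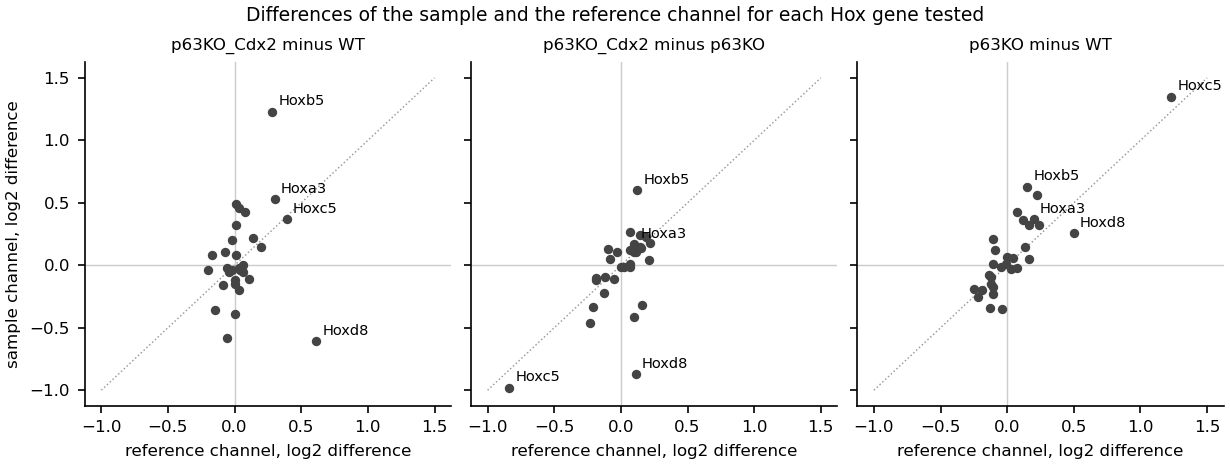
Log2 difference of the sample channel (vertical axis) against that of the reference channel (horizontal axis) for the 30 tested Hox genes in the 3 comparisons, where points on the dotted line have equal differences in both channels. Hoxc5 lies near the line in p63KO minus WT (1.35 and 1.23), and Hoxd8 lies far below it in p63KO_Cdx2 minus WT (-0.61 and 0.61).

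For 7 members a second probe was well above background, and its direction was set beside that of the brighter probe. In p63KO_Cdx2 against p63KO the 2 probes had the same sign in 3 genes and opposite signs in 3, with a widest gap of 0.27 for Hoxd9 (-0.48 and -0.21), and the Hoxa4 difference was 0.00 at the brighter probe. The second probe had the same sign in 7 of 7 genes in p63KO against WT. In p63KO_Cdx2 against WT it had the same sign in 5 and the opposite sign in 2, and the widest gap was 0.31 for Hoxb6 (0.35 and 0.04). The second Hoxa4 probe had -0.29 (SE 0.10) in p63KO_Cdx2 and -0.23 (SE 0.09) in p63KO, each against WT, where the brighter probe had -0.12 in both. Hoxd8, Hoxb5, Hoxb2, Hoxa2, Hoxa9 and Hoxd4 had 1 probe on their own strand, so their values have no such check.

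Genes that act with or upstream of Hox genes were read from 4 lists, and some passed in the comparisons with WT. Retinoic acid, made by aldehyde dehydrogenases, switches on 3' Hox genes. Of the 15 measured genes of its synthesis, breakdown and reception, 3 fell, 0 rose and 12 did not pass in p63KO_Cdx2 against WT, where 3.56% of all genes passed. Aldh1a3, a retinoic acid making enzyme, averaged 2.77 ± 0.05 in p63KO_Cdx2, 3.42 ± 0.25 in p63KO and 4.18 ± 0.19 in WT, and fell by 1.41 (SE 0.16; limma, adjusted p = 0.00385) in p63KO_Cdx2 against WT. Aldh1a2, the main such enzyme of the embryo's mesoderm, fell by 0.67 (SE 0.10; adjusted p = 0.0137), and the receptor gene Rxrb fell by 0.66 (SE 0.10; adjusted p = 0.0144). In p63KO against WT 1 of the 15 fell, Aldh1a2, by 0.58 (SE 0.09; adjusted p = 0.0231), and 14 did not pass, where 0.808% of all genes passed. Aldh1a2 in p63KO did not pass without WT replicate 2, 3 or 4 or p63KO replicate 2 or 3. Without p63KO_Cdx2 replicate 2, Aldh1a2 and Rxrb did not pass in p63KO_Cdx2 against WT and Aldh1a1 did. The squamous marker sums given above were lower in both knockout groups than in WT. The 8 smooth muscle markers also summed lower, to 17.78 to 18.13 in p63KO_Cdx2 and 18.01 to 18.12 in p63KO, against 18.36 to 19.20 in WT. The 7 simple columnar epithelium markers summed to 17.07 to 18.06 in p63KO_Cdx2 and 17.07 to 17.54 in p63KO, against 17.51 to 18.65 in WT. Both knockout groups thus overlapped WT in this sum. By their median signal they did not, at 13.19 to 13.96 in p63KO_Cdx2 and 13.48 to 14.01 in p63KO, against 14.58 to 15.47 in WT. The part of these marker levels in the changes was not tested. The list median was -0.231 in p63KO_Cdx2 against WT, where that of all genes was -0.0207.

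Polycomb proteins keep Hox genes silent and Trithorax proteins keep them active. Of the 25 genes listed, 2 rose, 1 fell and 22 did not pass in p63KO_Cdx2 against WT, where 3.56% of all genes passed. Ezh2, the histone methyltransferase of Polycomb repressive complex 2, averaged -0.18 ± 0.07 in p63KO_Cdx2, -0.96 ± 0.19 in p63KO and -1.06 ± 0.14 in WT, and rose by 0.89 (SE 0.13; limma, adjusted p = 0.0125). Suz12, a core subunit of that complex, rose by 0.48 (SE 0.09; adjusted p = 0.0261), and Ezh1, the sister enzyme of Ezh2, fell by 0.41 (SE 0.09; adjusted p = 0.0498). Suz12 did not pass without WT replicate 2, 3 or 4, p63KO replicate 3 or either p63KO_Cdx2 replicate. Ezh1 did not pass without any of these or without WT replicate 1, and Ezh2 did not pass without p63KO_Cdx2 replicate 2. Against p63KO, Ezh2 differed by 0.78 (SE 0.14; adjusted p = 0.247) in p63KO_Cdx2 and no gene of the list passed. Of the 25, 0 passed in p63KO against WT, and Kdm6b, a demethylase of the Polycomb mark, had the lowest p (0.21, SE 0.07; adjusted p = 0.411).

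The TALE homeodomain proteins Pbx, Meis and Pknox bind DNA together with Hox proteins. None of the 11 genes listed passed in any of the 3 comparisons (limma). Pbx4 had the lowest p in both comparisons with WT, at 0.52 (SE 0.17; adjusted p = 0.124) in p63KO_Cdx2 and 0.63 (SE 0.15; adjusted p = 0.147) in p63KO, and Meis3 had it in p63KO_Cdx2 against p63KO (-0.23, SE 0.09; adjusted p = 0.311). At an unadjusted p under 0.05 the list held 2 genes, 2 genes and 1 gene in p63KO_Cdx2 against WT, p63KO_Cdx2 against p63KO and p63KO against WT, where 21.5%, 14% and 9.17% of all genes did.

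Of the 14 upstream and neighbouring homeobox genes and Hox regulators listed, 7 were tested. Mnx1, a homeobox gene outside the clusters, fell by 0.67 (SE 0.11; adjusted p = 0.0386) in p63KO against WT, at 0.62 ± 0.22 in p63KO_Cdx2, 0.30 ± 0.07 in p63KO and 0.97 ± 0.17 in WT. Mnx1 did not pass without WT replicate 1, 2 or 3 or any 1 of the p63KO replicates. Evx1, the even-skipped neighbour of the Hoxa cluster, and Gbx2 and Otx2 were not well above background on any array. In p63KO_Cdx2 against p63KO no gene of these 4 lists passed (limma), and those at an unadjusted p under 0.05 numbered 2 of 11 cofactors, 2 of 15 retinoic acid genes, 5 of 25 Polycomb and Trithorax genes and 2 of 7 of the last list, where 14% of all genes did.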

How the data were processed

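Mean spot and median local background intensities in both channels were taken from the scanner files as deposited, per the file headers, which name Agilent's Feature Extraction in version 10.7.3.1, while version 9.1 stands in the submitters' processing notes. The deposited series table holds the authors' log2 ratios of Cy5 over Cy3. Its columns matched their own arrays at r of 0.992 or more, its medians ran from -0.213 to -0.0281, and its centring is not given in the sources used here. That table was set against the deposited log10 ratios of the scanner files to find its scale and direction, and it and the deposited processed intensities served as alternatives.

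Spots marked as outliers were left out (119 to 171 per array), and spots whose local background was marked as non-uniform (8 to 35) received the array's median background. With their own background, up to 5415 units on WT replicate 3 against a median of 44, normexp raised the 5th percentile of that array's sample signal to 294, against 64.2, and narrowed its log ratios (SD 0.665, against 0.890). This step was set after the data were seen. Normexp with an offset of 50, then loess within arrays, gave log2 ratios for 41174 probes. Spots of a probe were averaged, 33750 probes well above background on at least 2 of 9 arrays were kept, and the brightest probe stood for a gene. Of the probes, 26918 were named through an accession and 5899 through a symbol in RefSeq (GRCm38.p6), and 8357 kept the file's name. Signals of the sample channel alone are after loess and Aquantile.

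limma 3.58.1 in R 4.3.3 was fitted over all 9 arrays with 3 genotypes, with Benjamini-Hochberg adjustment over all genes at 0.05, and was tested on simulated data. p-values measure the spread between mouse samples that the labels call biological replicates. The number of arrays limits the precision. Per array, 30021 to 33243 probes exceeded background clearly, and no sample spot was saturated. The members, lists and tests were chosen with earlier results of these data known. Members described on every array were those that passed, the 3 with the lowest p in each comparison, and those with groups apart by at least 1 log2 unit. Hoxc5, the genes that did not overlap and the remaining members were added after their values were seen. From each list, up to 4 passing genes a direction are given, otherwise the gene with the lowest p. Of the listed genes, 1 is counted in the totals and not reported here. Replicate numbers are shared between groups without a stated link, and same-numbered deviations correlated at -0.0812, 0.0999 and 0.277 in p63KO against WT, so they were not taken as pairs.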

Additional observations from a re-analysis of the deposited data

Results flagged for a closer look

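In WT replicate 4 the Hoxc9 log2 ratio was -4.19, apart from -4.04, -4.06 and -4.06 on the other WT arrays by 0.831 of the group's range, above Dixon's 95% critical value for 4 samples. It was the single flag among 29 members tested in this way, and chance flags about 1 in 20 groups. The p63KO arrays ranged from -4.19 to -3.83.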

How the results depend on the processing

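The alternatives were run for 9 single-gene differences, the 3 with the lowest p in each comparison, and none reversed. Only Hoxd8 in p63KO_Cdx2 against WT had passed among them, and it kept the threshold in 18 of 26 alternatives. The others had not passed and could only stay or gain. Some alternatives, such as Aquantile, leave the log ratios as they are, so the tally over all values does not measure stability. Of the resulting 234 values, 225 kept their side of the threshold, 8 lost it, all Hoxd8 in p63KO_Cdx2 against WT, and 1 gained it, Hoxb5 in the same comparison. Hoxd8 there ran from -1.62 to -0.58 (limma, adjusted p from 0.0056 to 0.437): it missed the threshold in the sample channel (-0.61 and -0.58), with only the compared groups fitted (-1.23, adjusted p = 0.0504) and with the replicate number as a block (-1.19, adjusted p = 0.195).

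The count of Hox genes called in p63KO_Cdx2 against WT, 1, was 0 in the sample channel under both scalings, with the replicate block and with only the compared groups fitted, and 0 to 2 with 1 array left out. In p63KO against WT it was 1 in the sample channel (Hoxc5) and 0 in the ratio. List genes called in p63KO_Cdx2 against WT, 7, numbered 4 with the scanner's processed signals or the authors' table, 3 with every spot's own background, 0 with the replicate block and 2 to 7 with 1 array left out. Those called in p63KO against WT, 2, numbered 0 with processed signals, the authors' table, every spot's own background or the replicate block, 1 with a trended and robust prior, 4 with array weights and 0 to 2 with 1 array left out. Same-numbered arrays share only a number.

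Counts over all genes moved too. In p63KO_Cdx2 against WT, 807 became 398 with processed signals or the authors' table, 319 with every spot's own background, 440 with array weights, 456 with only the compared groups, 37 with the replicate block and 244 to 1174 with 1 array left out. In p63KO against WT, 183 became 74 with every spot's own background, 359 with array weights, 298 with only the compared groups, 53 with the replicate block and 84 to 298 with 1 array left out, and 446 and 433 in the sample channel. In p63KO_Cdx2 against p63KO, 0 became 116 without p63KO_Cdx2 replicate 1 and 35 without replicate 2. A lone array there is assumed to vary like the other groups. The causes were not tested. Slide as a block could not be run, since each genotype had its own slide. Signal near background limits Hoxd1, Hoxd3, Hoxd10 and Hoxd12. Hoxa10, Hoxc8, Hoxb13 and Hoxc10 were dim in the sample channel too, which limits their differences as well.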
